A study of Mus musculus with 9 samples.

Results

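The genes described here build the nuclear pore and carry cargo through it. The set was given by name: 29 nucleoporins and 6 soluble transport factors, 35 genes in all, with Nup98 among them as the partner gene of the fusion under study. Of these, 34 were found by symbol among the 37980 genes of the count table, and Nup62 was not analysed here. RNA was sequenced from 4 samples of NA MPs and 5 samples of WT MPs, where MPs are myeloid progenitors of mouse bone marrow (Lin- c-kit+ Sca1-), NA is the Nup98-Hoxa10hd fusion gene and WT is wild type, on a C57BL/6 background. The sorted cells were taken 3 months after transplantation per the labels, whereas the study's methods name a later time.

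In the NA mice the fusion was switched on from the Rosa26 locus by Vav-Cre, a Cre driven in blood cells. NA MPs were Tdtomato+ and were sorted from irradiated recipients that had been given multipotent progenitors (MPPs) of NA mice together with bone marrow helper cells. WT MPs were sorted as CD45.2+ cells, and elsewhere the study describes recipients as CD45.2+ and WT donor cells as CD45.1+, so their origin among donor, helper and host cells is unclear. Transplantation was shared by both groups, and the reporter and the sort gate differed between them. Whether a sample is 1 mouse was not stated, so p-values measure the spread between these samples, which may be technical.

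The nuclear pore complex is a ring of stacked scaffolds set in the nuclear envelope, with a membrane ring that anchors it, a channel filled by nucleoporins rich in phenylalanine-glycine (FG) repeats, filaments on the cytoplasmic face and a basket on the nuclear face. Importins and exportins bind the FG repeats and carry cargo through the channel, and the small GTPase Ran, bound to GTP in the nucleus and to GDP in the cytoplasm, sets the direction. Nup98 carries GLFG repeats, a kind of FG repeat, and moves between the pore and the nucleoplasm. In leukaemia its first part is joined to the DNA-binding part of homeobox and other proteins, and Nup98-Hoxa10hd is an engineered fusion of this kind, with the Hoxa10 homeodomain. The Nup98 gene also encodes Nup96, a protein of the Y-shaped scaffold that is cut from a shared precursor, so its count covers both products.

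Reads assigned to genes numbered from 5557723 to 8106141 per sample, at which 3 counts correspond to 0.370 to 0.540 CPM (read counts scaled to the library size), a limit that takes in only counting error. All 34 genes passed the filter on low counts, which kept 11953 genes. In a principal component analysis the first component (66.1% of the variance) separated the groups, and NA MP sample 1 stood apart on the second (19.3, against -9.11 to -2.86 in the other NA MPs). The tissue label was checked against 10 myeloid progenitor genes, all of which were expressed, with summed normalized counts of 166494 to 182804 in NA MPs and 161927 to 168439 in WT MPs. Of 6 T cell genes, Cd3e and Cd3g were at 0 in all 9 samples and Cd3d, Cd4 and Cd8a had at most 6.76 normalized counts, whereas Lck was higher in NA MPs (41.3 to 59.4 normalized counts against 6.89 to 13.1, log2 fold change 2.27, adjusted p = 1.29e-13). Differences are log2 fold changes of NA MPs minus WT MPs, from edgeR's quasi-likelihood test over all tested genes with Benjamini-Hochberg adjustment, and a gene is called higher or lower at an adjusted p under 0.05. A normalized count is a read count scaled to a library of 6716392 reads, the mean effective library size.

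The promoters of the pore genes are shown for Nup98, the member that rose most, and for Ranbp2 and Kpna2, which fell by 19.6% and 20.8%. RefSeq start sites (GRCm38.p6) were found for 30 of the 34 genes. The 250 bases before the start farthest upstream follow, on the strand of the gene and from 5′ to 3′. CCAAT and the GC box GGGCGG are in capitals on either strand.
Nup98, chr7:102210167-102210416, minus strand: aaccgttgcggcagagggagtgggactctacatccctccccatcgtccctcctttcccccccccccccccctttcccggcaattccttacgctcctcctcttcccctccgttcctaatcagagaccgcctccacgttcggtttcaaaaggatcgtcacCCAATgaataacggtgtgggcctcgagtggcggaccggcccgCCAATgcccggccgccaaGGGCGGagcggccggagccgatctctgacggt
Ranbp2, chr10:58446602-58446851, plus strand: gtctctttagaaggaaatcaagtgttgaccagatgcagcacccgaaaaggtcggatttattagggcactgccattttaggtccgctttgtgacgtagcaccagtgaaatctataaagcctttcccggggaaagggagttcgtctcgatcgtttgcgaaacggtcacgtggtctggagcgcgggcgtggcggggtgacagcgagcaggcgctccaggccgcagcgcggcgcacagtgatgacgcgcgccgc
Kpna2, chr11:106999526-106999775, minus strand: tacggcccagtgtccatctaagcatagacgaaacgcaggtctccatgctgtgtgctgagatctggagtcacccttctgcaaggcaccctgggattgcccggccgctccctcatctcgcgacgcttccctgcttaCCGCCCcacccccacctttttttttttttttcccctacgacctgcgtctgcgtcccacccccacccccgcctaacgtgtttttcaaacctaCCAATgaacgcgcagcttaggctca
The Nup98 window held CCAAT at 2 places and a GC box at 1, the Kpna2 window held 1 of each, and the Ranbp2 window held neither. The counts that follow are of genes with a match at any of their listed starts, in windows that also take in the 50 bases after the start. GGGCGG was present in 22 of the 30 genes (73.3%), against 69.1% of tested genes and 38.2% of all genes in the table. CCAAT was present in 11 of 30 (36.7%), against 43.4% of tested genes and 41.1% of all genes. Exact matches to the longer words that NRF1 and YY1 bind were present in 3 and 4 of the 30 genes, against 2.51% and 1.99% of tested genes. The ETS word CCGGAAGT was present in 5 (16.7%), against 9.87% of tested genes. Both strands were searched, the words do not contain each other, and a match describes letters and not a bound site.

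The comparison asked how RNA levels of the pore and transport genes differed between progenitors with and without the fusion. Most of these genes were modestly lower in NA MPs, and Nup98 went the other way. Of the 34 genes, 23 were lower, 2 were higher (Nup98 and Nup210) and 9 did not pass the threshold. Without NA MP sample 1, which stood apart, 22 were lower and 2 higher, and 15.1% of all genes tested in that fit were lower. The background was high: 34.1% of the 11953 tested genes were called, 16.3% lower and 17.9% higher. Among the 8000 tested genes within the members' range of levels, 19.3% were lower and 17.1% higher. The falls ran from 5.80% for Ran to 23.8% for Nup35. The median log2 fold change of the 34 genes was -0.14, beside -0.0010 over all tested genes. Every NA MP value lay below every WT MP value for 22 of the 34 genes, against 12.2% of tested genes and 14.2% of those within the members' range of levels. Every NA MP value lay above every WT MP value for 2, Nup98 and Nup210, against 14.2% of tested genes. These are bulk samples, so fewer cells of a type and less RNA per cell cannot be told apart.

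**Figure D1:**
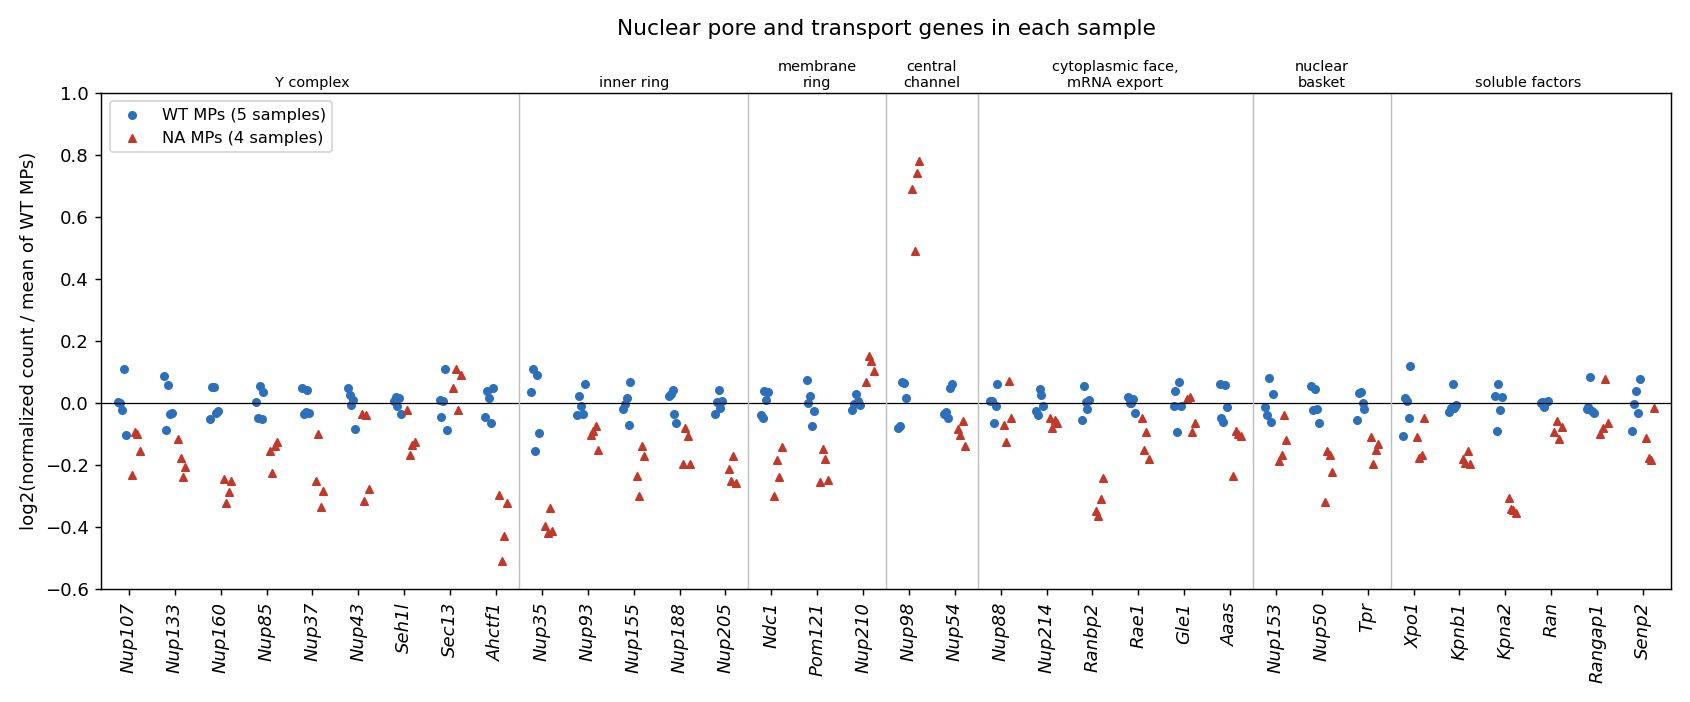
Each of 34 nuclear pore and transport genes (horizontal axis, grouped by place in the pore) in 5 WT MP samples (blue circles) and 4 NA MP samples (red triangles), as the log2 ratio of the normalized count to the mean of WT MPs (vertical axis). Nup98 stands above 0 in all 4 NA MP samples, and most other genes sit slightly below 0 there, with 22 of 34 genes showing no overlap between the groups in that direction.

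Nup98 (ENSMUSG00000063550) lies on the minus strand of chr7:102119398-102210176 (GRCm38) and has no exon overlap with another gene. Its normalized counts were 974, 848, 1009 and 1037 in NA MPs 1 to 4 and 570.5, 573, 632, 631 and 610.1 in WT MPs 1 to 5. The groups did not overlap, and the lowest NA MP sample, sample 2, was still well above the highest WT MP sample. The means were 967 ± 83.3 (SD, n = 4) and 603 ± 30.1 (SD, n = 5), a log2 fold change of 0.68 (SE 0.048, 95% confidence interval 0.58 to 0.78, not adjusted for multiple tests) with an edgeR adjusted p of 4.80e-14. The exact two-sided permutation p of 0.00794 is the smallest that 4 samples against 5 allow and adds little to the absence of overlap, since 20 of the 34 members had it. A rise of this size was not rare in these cells, since 508 tested genes (4.25%) had a log2 fold change at or above it. The count table has no entry for the fusion, and whether the fusion carries human or mouse sequence was not stated, so reads of the fusion and of endogenous Nup98 cannot be told apart. Hoxa10, the other partner, had normalized counts of 130.3 ± 17.9 in NA MPs and 8.10 ± 2.58 in WT MPs, a difference of 122 normalized counts beside 364 for Nup98.

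Set against the rest of the pore within each sample, a measure that does not depend on scaling between samples, Nup98 was higher in NA MPs. Its share of all reads of the 28 nucleoporins was 3.37%, 2.92%, 3.41% and 3.54% in NA MPs 1 to 4. In WT MPs 1 to 5 the share was 1.85%, 1.84%, 1.999%, 2.03% and 1.97%. The lowest share in NA MPs was thus above the highest in WT MPs, with means of 3.31% ± 0.268 and 1.94% ± 0.088. The log2 ratio of Nup98 to the sum of the other 27 nucleoporins was higher by 0.79 in NA MPs (-4.87 ± 0.125 against -5.66 ± 0.067). The ratio of Nup98 to each of the 33 other members was also higher in every NA MP sample than in every WT MP sample. The group means differed by 0.56 to 1.07 on the log2 scale. All 33 ratios share the Nup98 count, which itself did not overlap between the groups, so they add little to it. Part of the higher ratio to the other 27 nucleoporins was the fall of those genes. Their summed normalized count was 28238 ± 266 in NA MPs and 30543 ± 266 in WT MPs.

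**Figure D2:**
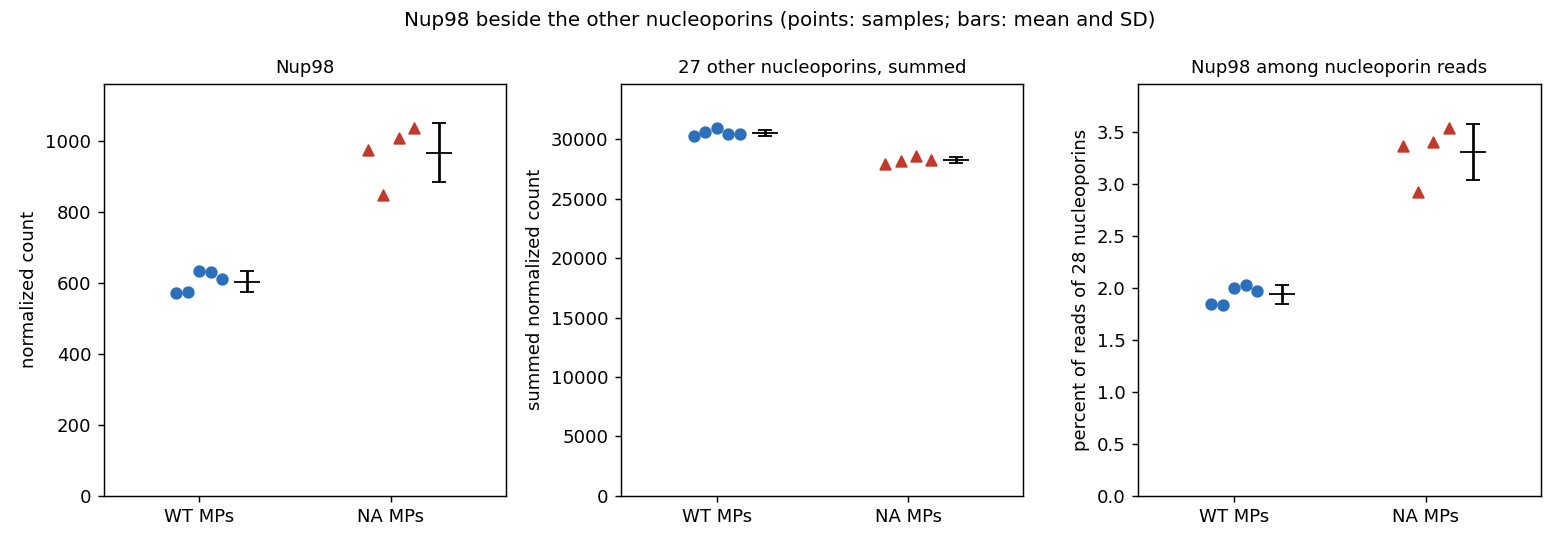
Normalized count of Nup98 (left), summed normalized count of the 27 other nucleoporins (middle) and percent of the reads of all 28 nucleoporins that fell on Nup98 (right), in 5 WT MP samples (blue circles) and 4 NA MP samples (red triangles), with the mean and SD beside the points. Nup98 and its share were higher in all 4 NA MP samples, and the sum of the others was lower in all 4.

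Nup98 was among the least expressed pore genes per length. In WT MPs it had 7.13 CPM per kb of exon, rank 33 of the 34 genes, above Nup35 alone (5.86 CPM per kb). In NA MPs it had 11.4 CPM per kb, rank 27. The top of the order was the same in both groups: Ran (207 CPM per kb in WT MPs and 195 in NA MPs), Kpnb1 (101 and 89.2) and Nup210 (82.2 and 89.1). Lengths are unions of all annotated exons, so a gene with long or rarely used exons has a lower value.

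The scaffold of the outer rings, the Y complex, was mostly lower in NA MPs. Of its 9 genes measured here, 7 were lower, against 16.3% of all tested genes, and Nup43 and Sec13 did not pass. Its steepest fall was in Ahctf1 (chr1:179744894-179803680, minus strand), which encodes Elys, the protein that binds chromatin and seeds pores after mitosis. Its normalized counts were 947, 816, 863 and 929 in NA MPs and 1127, 1196, 1177, 1111 and 1202 in WT MPs. It fell by 23.5%, with no overlap between the groups (log2 fold change -0.39, SE 0.040, adjusted p = 1.41e-11). Its exons overlap those of Kif28 on the same strand, so its count may take in reads of that gene. Nup160, a large protein at the branch of the Y, had normalized counts of 618, 585, 601 and 615 in NA MPs and 707, 759.7, 759, 716 and 719.9 in WT MPs. It fell by 17.4%, again without overlap (log2 fold change -0.28, SE 0.043, adjusted p = 6.22e-07).

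The other called Y complex genes fell by less. Nup37, a small beta-propeller subunit, fell by 15.3% (log2 fold change -0.24, adjusted p = 0.00428). Nup133 at the stem of the Y fell by 11.9%, its neighbour Nup107 by 9.50%, and Nup85, on a short arm, by 10.5%. Seh1l, which the pore shares with the GATOR2 complex of amino acid sensing, fell by 7.44% (adjusted p = 0.0300), and that call was lost in 9 of 22 alternative analyses. Nup43 had a log2 fold change of -0.17 (adjusted p = 0.0991), with the widest spread of any member in NA MPs, a coefficient of variation of 10.4%. Sec13, which also serves in the COPII coat of transport vesicles, had 737, 769, 702 and 758 normalized counts in NA MPs and 717, 689.9, 715, 769 and 671 in WT MPs. Those groups overlapped, and the interval of its log2 difference was -0.02 to 0.15.

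All 5 genes of the inner ring, which joins the outer rings to the membrane and the channel, were lower. In each of them every NA MP value lay below every WT MP value. Over all tested genes 16.3% were lower, and 12.2% had no overlap in that direction. Nup35 (chr2:80617236-80658906, plus strand), a linker protein that contacts the membrane, had normalized counts of 101, 99.1, 105 and 99.5 in NA MPs and 136, 143, 119, 141 and 124 in WT MPs. It was the least counted member and had the steepest fall of the 34, -0.39 on the log2 scale, with the widest standard error of the 34 genes (0.093, adjusted p = 0.000606). Its exons overlap those of Dusp19 on the same strand. Nup205, one of a pair of large scaffold proteins, had 1368, 1334, 1409 and 1327 normalized counts in NA MPs and 1548, 1590.1, 1633, 1568 and 1595 in WT MPs. The gap between the groups was wide against their spread, with a log2 fold change of -0.22 (SE 0.033, adjusted p = 1.68e-07). Nup155, which bridges scaffold and membrane, fell by 13.6%, and Nup188, the relative of Nup205, by 9.52%. Nup93, the scaffold hub that holds the channel proteins, fell by 6.98% (adjusted p = 0.0362), a call lost in 9 of 22 alternatives.

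The 3 membrane proteins of the pore did not move together. Ndc1, which recruits other nucleoporins to the membrane, had normalized counts of 637, 691, 665 and 709.9 in NA MPs and 764, 758, 805, 789 and 803 in WT MPs. Pom121, needed early in the assembly of pores into the envelope, had 960.5, 1035, 1011 and 965 in NA MPs and 1206, 1146, 1165, 1089 and 1125 in WT MPs. Both fell without overlap, Ndc1 by 13.8% and Pom121 by 13.4% (adjusted p = 6.85e-05 and 1.25e-05). Nup210 (chr6:91013068-91116829, minus strand), a glycoprotein whose bulk lies in the lumen of the envelope, was the most counted nucleoporin. Its values were 6062, 6428, 6357 and 6216 in NA MPs and 5689.6, 5767, 5894, 5803 and 5751 in WT MPs. It rose in all 4 NA MP samples, by 8.39% (log2 fold change 0.12, SE 0.025, adjusted p = 0.000197). In the central channel, Nup54, an FG protein that forms the channel complex with Nup62, had 396, 390.3, 402 and 380.4 normalized counts in NA MPs and 409, 411, 405, 433 and 437 in WT MPs. These values did not overlap, but its log2 fold change of -0.10 did not pass the threshold (adjusted p = 0.143).

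**Figure D3:**
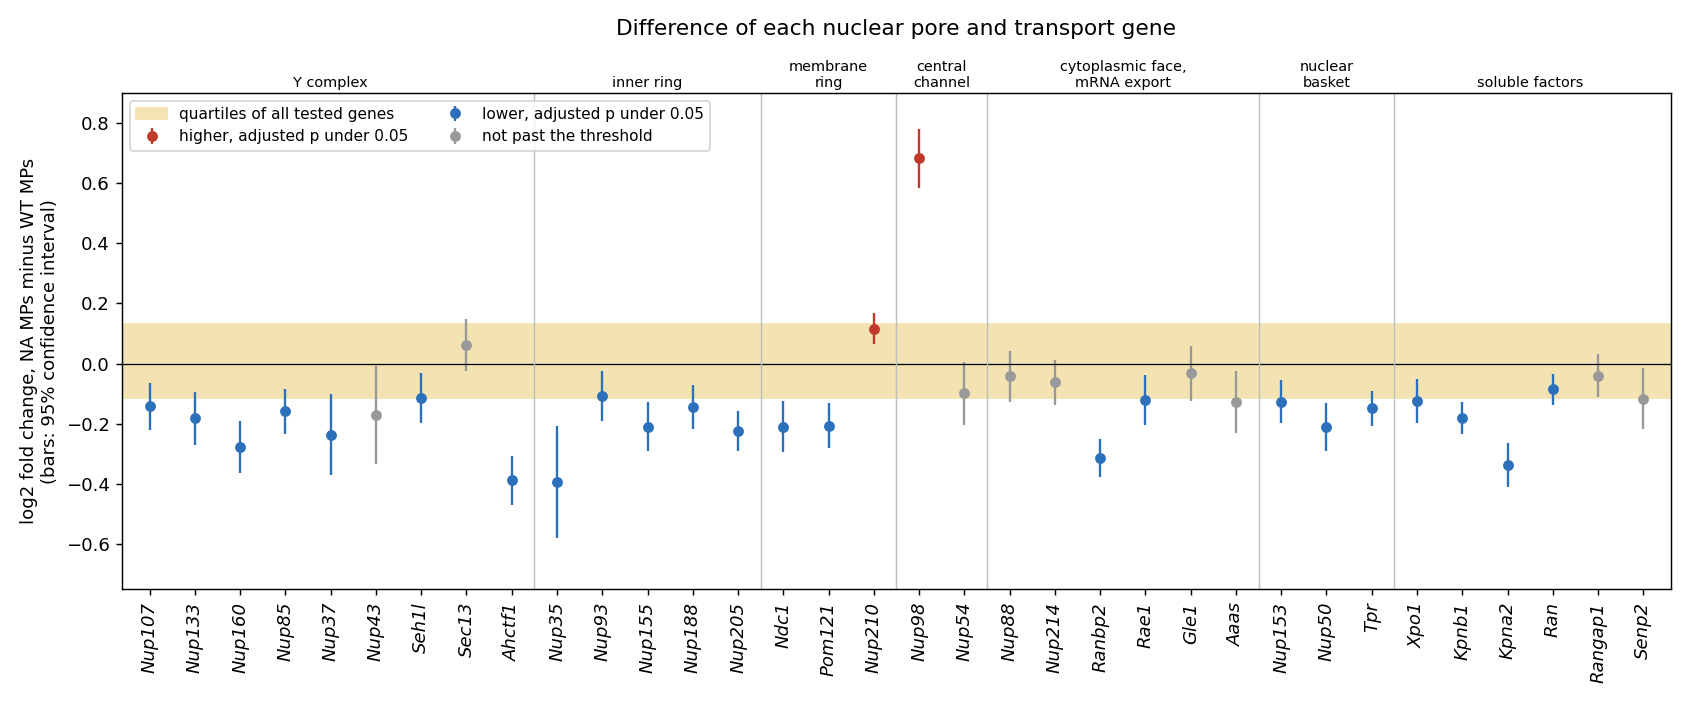
Log2 fold change of NA MPs minus WT MPs (vertical axis) for each of the 34 genes (horizontal axis, grouped by place in the pore), with 95% confidence intervals from edgeR, in red for higher, blue for lower and grey for not past an adjusted p of 0.05. The shaded band runs between the quartiles of all tested genes, from -0.11 to 0.13: Nup98 lies far above it, Nup210 within it, and most of the lower genes below it.

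Of the 6 genes of the cytoplasmic face, 2 were lower, against 16.3% of all tested genes, and 4 did not pass. Ranbp2 (chr10:58446920-58494356, plus strand), the giant filament protein that binds Ran and acts as a SUMO ligase, had normalized counts of 1857, 1839, 1910.2 and 2001 in NA MPs and 2279.7, 2457, 2372, 2332 and 2384 in WT MPs. It fell by 19.6%, with a wide gap between the groups (log2 fold change -0.31, SE 0.031, adjusted p = 5.22e-12). Rae1, an mRNA export factor that binds Nup98 directly, had 733, 682, 711 and 669.7 normalized counts in NA MPs and 768, 758, 758, 764 and 741 in WT MPs. It fell by 7.77% (adjusted p = 0.0194), while the Nup98 count, which may take in reads of the fusion, was higher. The call of Rae1 was lost in 4 of 22 alternatives. Nup88 and Nup214, which form a complex on the filaments, had log2 differences of -0.04 (-0.13 to 0.04) and -0.06 (-0.14 to 0.01). For Gle1, which activates the RNA helicase that ends mRNA export, the difference was -0.03 (-0.12 to 0.06). Aaas, which encodes Aladin, lay at the threshold (-0.13, adjusted p = 0.0501), and it was called lower in 9 of 22 alternatives.

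All 3 genes of the nuclear basket were lower, against 16.3% of all tested genes. Tpr, the coiled-coil protein that makes the basket, had normalized counts of 2714, 2554, 2638 and 2675 in NA MPs and 2819.8, 2998, 3006, 2931 and 2891 in WT MPs. Nup50, a mobile protein that helps to release importin cargo, had 797, 893, 885 and 851 in NA MPs and 1032, 979, 1024, 980.0 and 949.9 in WT MPs. Neither gene showed overlap between groups, and they fell by 9.69% and 13.8% (adjusted p = 4.67e-05 and 2.36e-05). Nup153, which ties the basket to the lamina, fell by 8.40% (adjusted p = 0.00511), with NA MP sample 3 inside the range of WT MPs. The overlap of Tpr exons with Odr4 and Prg4 is on the opposite strand.

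Among the 6 soluble factors 4 were lower, against 16.3% of all tested genes, and 2 did not pass. The summed normalized count of the 6 was 11902 ± 72.0 in NA MPs and 13126 ± 236 in WT MPs. Kpna2 (chr11:106988629-106999541, minus strand), an importin alpha that recognizes nuclear localization signals, had 981, 957, 957 and 949 normalized counts in NA MPs and 1234, 1139.6, 1268, 1196 and 1231 in WT MPs. It fell by 20.8%, with NA MP values close together and all below WT MPs (log2 fold change -0.34, SE 0.037, adjusted p = 8.55e-11). Kpnb1, the importin beta that carries importin alpha through the channel, had 3951, 3913, 4023 and 3905 in NA MPs and 4391, 4430.0, 4666, 4428 and 4460.2 in WT MPs. It fell by 11.8% without overlap (adjusted p = 1.85e-07). Xpo1, the main exportin for proteins with a leucine-rich signal and a binder of Nup98 fusions, fell by 8.27%, with overlap between the groups and an adjusted p of 0.00645. That call was lost once GC content and gene length were corrected for (adjusted p = 0.0999) and with that correction plus the replicate block (adjusted p = 0.373).

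Ran itself fell by 5.80%, from 3683, 3693, 3648, 3692 and 3696 normalized counts in WT MPs to 3449, 3540.1, 3395 and 3489.9 in NA MPs, the smallest fall that passed. The WT MP samples lay very close together for Ran, with a coefficient of variation of 0.539%. The genome holds intronless copies of Ran, and RSEM divides reads that match several genes by estimation, so its count may be uncertain. Rangap1, which makes Ran hydrolyse its GTP, had a log2 difference of -0.04 (-0.11 to 0.03). Senp2, a SUMO protease docked at the pore, had one of -0.12 (-0.22 to -0.01, adjusted p = 0.0701).

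Beyond these members, a list of 52 other nuclear transport genes, written with earlier results of these data known, was found whole and tested whole. Of these, 20 were lower, 1 was higher and 31 did not pass, with a median log2 fold change of -0.089, against 16.3% lower and 17.9% higher over all tested genes. By role, 9 of 14 other importins were lower, as were 3 of 6 other exportins, 4 of 15 mRNA export genes, 1 of 3 other pore proteins and 3 of 10 genes of the envelope and lamina. The 4 further genes of the Ran cycle did not pass, with log2 fold changes from -0.076 to 0.016. The medians of these role groups ran from -0.19 for the other pore proteins to -0.053 for the envelope and lamina. All 14 importin log2 fold changes were negative, the lowest at -0.17.

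Lmna, which encodes the A-type lamins of the nuclear lamina, differed most in the list. Its normalized counts were 102, 72.5, 71.0 and 104 in NA MPs and 208, 206, 202, 162 and 188 in WT MPs. It fell by 54.8% with no overlap (log2 fold change -1.13, SE 0.101, adjusted p = 2.43e-12). Among exportins, Xpo4 had 287, 305, 314 and 344 in NA MPs and 399.9, 395, 441, 426 and 456 in WT MPs and fell by 26.2% (adjusted p = 3.47e-08). Cse1l, the exportin that returns importin alpha to the cytoplasm, fell by 15.2%, and Xpo5, the exportin of microRNA precursors, by 13.5%. The log2 fold changes were -0.24 and -0.21, so Cse1l was lower together with the importins Kpna2 and Kpnb1. Mcm3ap, the scaffold of the TREX-2 complex of mRNA export, and the membrane protein gene Tmem33 had log2 fold changes of -0.26 and -0.20 (adjusted p = 1.08e-06 and 0.000402). The sole rise was in Sun2, which links the lamina to the cytoskeleton, by 0.11 on the log2 scale (adjusted p = 0.00114). It was lost when GC content and length were corrected for (adjusted p = 0.122).

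**Figure D4:**
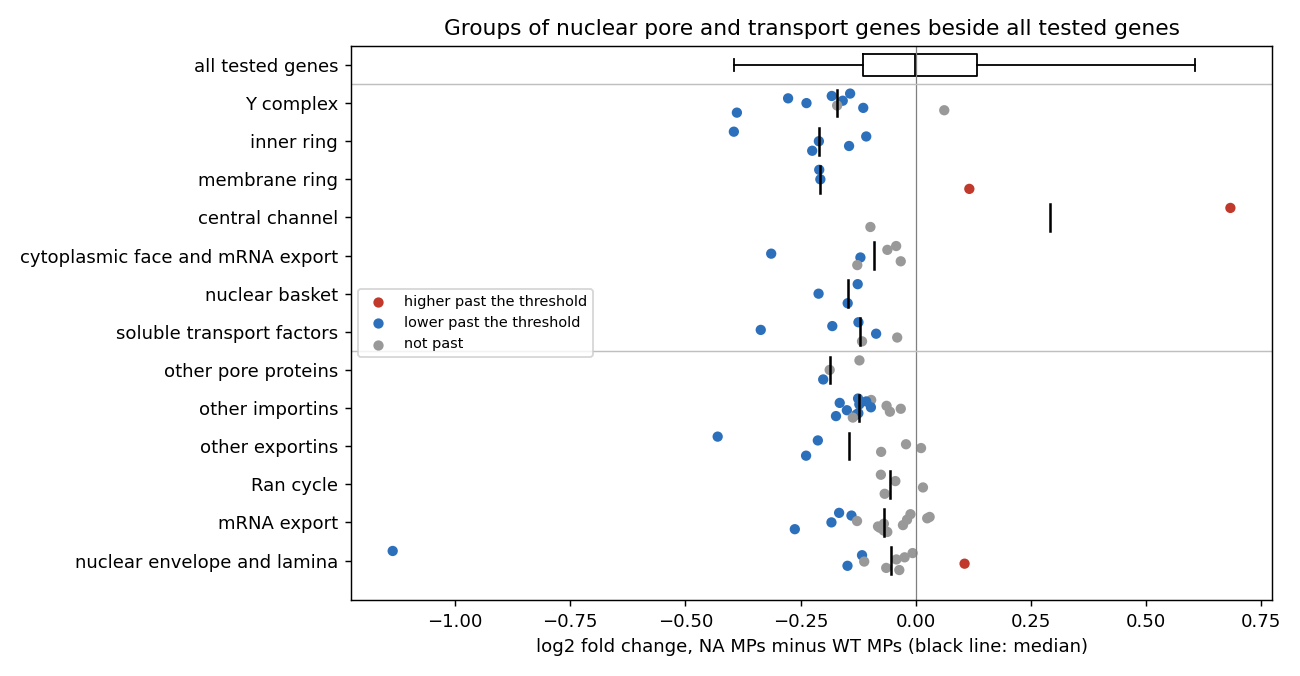
Log2 fold change of NA MPs minus WT MPs (horizontal axis) for each gene of the groups named on the vertical axis, the 34 pore and transport genes above and the 52 other transport genes below, with black lines at group medians. The box for all tested genes spans the quartiles and its whiskers end at percentiles 5 and 95: every group median other than that of the central channel, which holds Nup98 and Nup54 alone, lies below 0.

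Several marker lists also differed between the groups, and their part in the result was not tested. The counts that follow stand beside 17.9% higher and 16.3% lower over all tested genes. Of 20 proliferation genes, 12 were lower and 8 did not pass, with summed normalized counts of 39021 to 41665 in NA MPs and 43865 to 45072 in WT MPs. Of 10 erythroid progenitor genes, 9 were lower, with sums of 5026 to 6384 in NA MPs and 8864 to 9832 in WT MPs. All 10 pro-B and pre-B genes were higher (1406 to 2550 in NA MPs against 367 to 411 in WT MPs), as were the 13 tested of 15 immediate early genes (13726 to 30190 against 2978 to 6314). The 6 T cell genes summed to 46.1 to 66.9 in NA MPs and 11.2 to 18.8 in WT MPs, with Lck the 1 gene tested. Of the myeloid progenitor genes 6 of 10 were higher and 2 lower, of 7 mast cell and basophil genes 5 and 1, of 7 mature neutrophil genes 3 and 1, and of 6 megakaryocyte genes 1 and 2. Of 3 stem cell surface genes 2 were tested and 1 was higher, with low sums of 54.1 to 75.3 in NA MPs and 41.0 to 53.4 in WT MPs. Exons of 11 of the 34 members overlap another gene in GENCODE M21, 7 of them on the opposite strand alone, and the strand setting of the counting was not stated. Of these 11 genes 8 were lower, and of the 23 genes with no overlap 15 were lower, 2 were higher and 6 did not pass.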

How the data were processed

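RNA of 4 NA MP and 5 WT MP samples was sequenced from poly(A) libraries. Per the labels and the study's methods, the authors aligned the reads to mm10 and estimated expression with RSEM, and they deposited expected counts of 37980 genes. The deposited values proved to have been divided by 1 factor per sample: 1 read was worth 0.827 to 1.20, and after multiplying back 96.6% to 97.5% of values over 0.5 reads were whole (tolerance 0.01), against 1.08% to 30.3% as deposited. The recovered expected counts were rounded. In R 4.3.3, edgeR 4.0.16 was run with TMM normalization, filterByExpr (minimum count 10), the robust quasi-likelihood test and Benjamini-Hochberg adjustment, at a threshold of 0.05. DESeq2 1.42.0, limma 3.58.1 on log2 of the deposited values plus 1, other normalizations, filters, a GC content and length correction, the replicate block and left-out samples were alternatives. The scripts were tested on simulated data.

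Symbols came from RefSeq and Ensembl tables and matched 32916 genes, and coordinates, exons and lengths came from GENCODE M21, which has the same build (GRCm38). The authors' annotation, strand setting and tool versions were not given in the sources used here. The members and lists were chosen with earlier results of these data known. The genes named are all members and, of the other nuclear transport genes, up to 6 in each direction with the largest log2 fold change among those past the threshold. Marker genes are given as lists. The biological coefficient of variation was 3.49%.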

Additional observations from a re-analysis of the deposited data

Results flagged for a closer look

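In 5 of 108 groups of samples examined, over the members, the named transport genes, Hoxa10, the summed marker lists and the 2 summaries of the nucleoporins, 1 sample lay apart from the rest of its group by Dixon's criterion, and chance alone gives about 5.4. For Aaas, NA MP sample 1 had a normalized count of 385, with the other NA MPs between 421 and 426. This sample also stood apart on the second principal component. WT MP sample 3 lay apart for 3 transport factors. Its normalized count was 4666 for Kpnb1 (other WT MPs 4391 to 4460.2), 3648 for Ran (3683 to 3696) and 1503 for Rangap1 (1387 to 1406). For Xpo5, WT MP sample 1 had 787 normalized counts, with the other WT MPs between 863 and 872. The calls of Kpnb1, Ran and Xpo5 were kept when each of these samples was left out, and Aaas and Rangap1 did not pass the threshold with all samples.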

How the results depend on the processing

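Across 22 alternatives no member or other transport gene named here reversed its direction while called. Lck and Hoxa10 were not followed through the alternatives. Of the 25 called members, 20 were called in every alternative. Calls were lost in at least 1 alternative for Seh1l, Nup93, Rae1, Xpo1 and Nup153, and gained for Aaas, Senp2 and Rangap1. Between 20 and 25 members were lower, and 2 were higher in each alternative. The share of all tested genes called lower ran from 7.89% with DESeq2 to 19.6% with library size alone. Nup98 kept its call in all, with log2 fold changes from 0.64 (without NA MP sample 4) to 0.74 (without NA MP sample 2). Of the other transport genes, 20 were lower in the main analysis, 13 with DESeq2 and 13 at an adjusted p threshold of 0.01. The single higher gene of that list, Sun2, was lost with the GC content and length correction (0 higher) and with that correction plus the replicate block (0 higher). Taking the deposited values as counts gave 24 lower members, and limma on their log2 gave 25; both were chosen after seeing the data.

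The replicate numbers 1 to 4 occur in both groups, and same-numbered samples showed no clear shared deviation (correlations of 0.0077, 0.0062, -0.019 and 0.053). Differently numbered pairs ran from -0.090 to 0.078, so these correlations cannot show whether same-numbered samples share a batch. With the replicate block over the 8 samples with shared numbers, which leaves out WT MP sample 5, 22 members were lower and 2 higher, and over all tested genes 1975 were higher and 1749 lower. The same 8 samples without the block gave 22, 2, 1979 and 1732. Nup93 was lost in both fits (adjusted p = 0.135 with the block and 0.105 without it). Depth limits the least counted member, Nup35, which had the widest standard error.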
